A study of Mus musculus with 6 samples.

Results

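The genes described here are the chemoreceptor genes transcribed in the mouse testis. They are the symbols that begin with Olfr (odorant receptors), Vmn1r and Vmn2r (vomeronasal receptors of type 1 and type 2), Tas1r and Tas2r (taste receptors) or Taar (trace amine-associated receptors) and whose mean over the 6 libraries was at least 0.1 FPKM (a fragment level corrected for gene length and library depth). They were chosen by this mean level. The rule kept 124 genes of 1526 chemoreceptor symbols, in tables of 25165 symbols. It used the level over both groups and not the difference between them, so the levels below are a description and the comparison of the groups is the tested part. Near the limit the rule is not free of that difference: 13 members had a mean under 0.1 FPKM in the libraries titled WT alone and 8 in those titled KO alone.

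The libraries came from testes of C57BL/6 mice aged 8 weeks, 3 titled KO and 3 titled WT, and the study compared mice deficient for the long noncoding RNA NR_038002 (Teshl) with wild-type mice. The labels do not say how the allele was made or whether each library came from its own animal, so p-values measure the spread between libraries, which may in part be technical. The titles and the genotype labels contradict each other: the genotype label is Wild type where the title says KO, and NR_038002-/- where it says WT. The groups follow the titles. The symbol 1700027A15Rik, taken as the target gene, stood at 0.385, 0 and 0 FPKM in the 3 libraries titled KO, against 1028, 989 and 1081 FPKM in those titled WT (limma, adjusted p = 0.0137), so it goes with the titles and against the genotype labels.

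Odorant receptors are G protein-coupled receptors, mostly read from a single coding exon, and an olfactory neuron as a rule uses one of them. Bound receptors act in the nose through the G protein subunit Gnal, the adenylyl cyclase Adcy3 and a cyclic nucleotide-gated channel, and in vomeronasal neurons through the channel Trpc2. Some odorant and taste receptor transcripts are known from the testis, where they are studied in spermatids and sperm.

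A run of odorant receptors on chromosome 17 held most of the members' summed difference between the groups. It lies at chr17:37847483-37953079 of mm10, in the odorant receptor cluster that adjoins the major histocompatibility complex. Olfr126, Olfr127 and Olfr128 lie on the plus strand and Olfr761 on the minus strand, and the run holds no other chemoreceptor symbol of the tables. Olfr112, on the minus strand at chr17:37561668-37569451, is a separate gene of the same cluster. The sequences show how alike these receptors are, since reads from a stretch that genes share cannot be given to one of them. Bases 541 to 660 of each coding sequence follow, from the GENCODE M21 transcripts (GRCm38), with capitals at the bases that differ from Olfr128.
Olfr128: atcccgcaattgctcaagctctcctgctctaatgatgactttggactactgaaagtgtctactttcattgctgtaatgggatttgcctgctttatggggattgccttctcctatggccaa
Olfr127: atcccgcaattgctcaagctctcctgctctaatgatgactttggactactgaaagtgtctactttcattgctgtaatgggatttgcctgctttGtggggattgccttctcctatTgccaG
Olfr126: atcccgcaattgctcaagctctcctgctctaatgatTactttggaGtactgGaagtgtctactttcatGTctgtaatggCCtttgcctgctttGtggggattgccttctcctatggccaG
Olfr761: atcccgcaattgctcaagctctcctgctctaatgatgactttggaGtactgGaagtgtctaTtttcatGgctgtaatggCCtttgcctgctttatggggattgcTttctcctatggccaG
Olfr112: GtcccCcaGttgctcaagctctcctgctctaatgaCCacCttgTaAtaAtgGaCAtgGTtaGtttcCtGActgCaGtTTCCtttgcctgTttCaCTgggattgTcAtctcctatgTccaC
In this stretch of 120 bases Olfr127 differed from Olfr128 at 3 positions, Olfr761 at 8, Olfr126 at 9 and Olfr112 at 32. The stretch was picked for the most positions (35) at which any of the genes differs from Olfr128, so it is not typical. It sets Olfr112 further apart than the whole coding sequence does. Over the whole coding sequence the 4 genes of the run were 90.2% to 94.0% identical to each other and 84.3% to 86.5% identical to Olfr112. The labels do not tell how reads that fit several genes were shared out, so levels within the run are uncertain.

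Few chemoreceptor genes reached the level of the rule. Of the 1526 symbols 862 were listed at 0 in all 6 libraries, and 8.13% had a mean of at least 0.1 FPKM, against 73.2% of the symbols outside these families. Odorant receptors gave 93 members of 1128 symbols (8.24%), and their median level was 0.240 FPKM. Vomeronasal receptors gave 13 members of 217 in type 1 (5.99%, median 0.244 FPKM) and 16 of 128 in type 2 (12.5%, median 0.267 FPKM). Taste receptors gave 1 of 3 in type 1, Tas1r1, and 1 of 35 in type 2, Tas2r140. None of the 15 trace amine-associated receptors was a member.

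Most members were faint: 76 reached 0.2 FPKM, 29 reached 0.5 FPKM and 15 reached 1 FPKM. A floor of 3 fragments on 1 kb of transcript, estimated from the spacing of low values, lay between 0.0767 and 0.108 FPKM in the 6 libraries, for 27900000 to 39100000 estimated fragments, and covers counting error only. The spread between libraries grew toward this floor. The median coefficient of variation was 17.6% in both groups for members of at least 1 FPKM, and 45.1% (titled KO) and 50.3% (titled WT) for the 48 members of 0.1 to 0.2 FPKM, of which 15 were listed at 0 in at least 1 library. Just inside the limit lay Olfr221 at 0.105 FPKM, Tas2r140 at 0.101 FPKM and Vmn2r57 at 0.1004 FPKM. Just outside it lay Olfr437 at 0.0999 FPKM, Vmn2r46 at 0.0987 FPKM and Olfr690 at 0.0973 FPKM.

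All the members together summed to 0.0173% to 0.0228% of the total FPKM of a library, and the 6 highest genes held 40.4% to 45.1% of that sum. Olfr128 (mean 8.57 FPKM), Olfr112 (7.67 FPKM) and the taste receptor Tas1r1 (6.96 FPKM) stood highest, and their ranges over libraries overlapped. Olfr701 (4.39 FPKM), Olfr733 (3.25 FPKM) and Olfr127 (2.97 FPKM) followed, the range of Olfr127 overlapped those of both, and Olfr701 and Olfr733 did not overlap each other. Of the 15 members of at least 1 FPKM, 9 were odorant receptors, 4 were vomeronasal receptors of type 2, 1 was the type 1 vomeronasal receptor Vmn1r181 and 1 was Tas1r1.

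**Figure D1:**
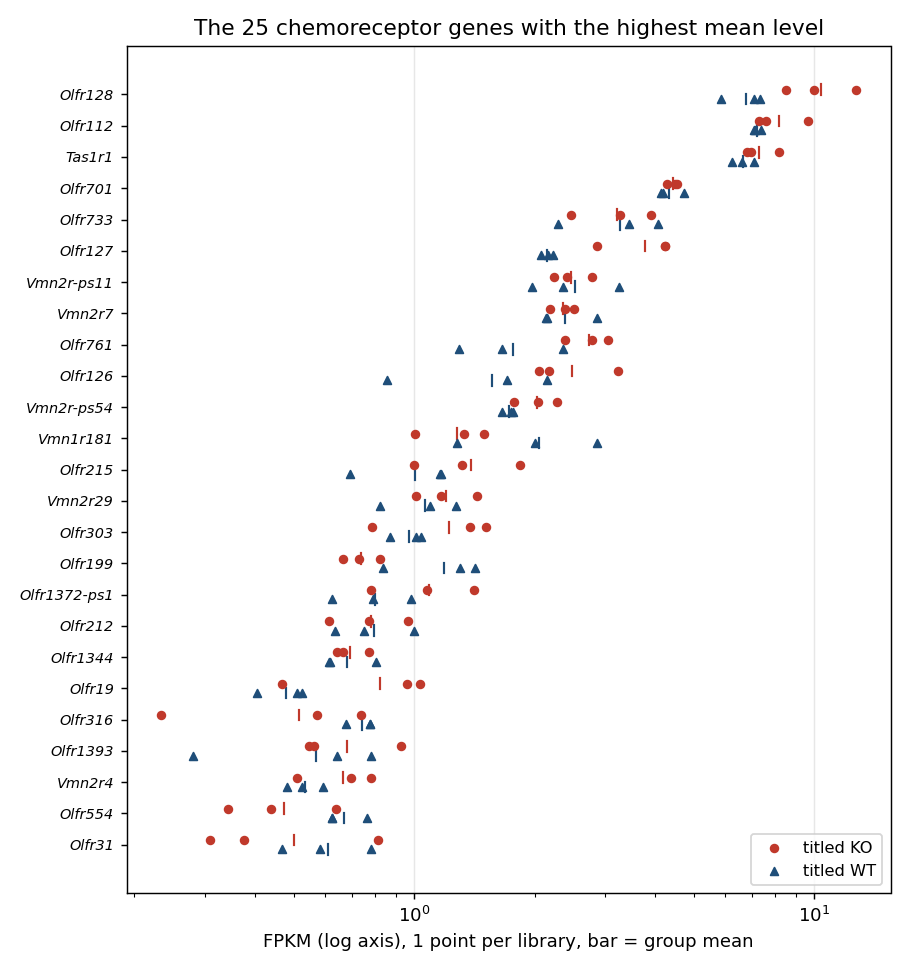
Level in FPKM (log axis) of the 25 chemoreceptor genes with the highest mean, with 1 point per library (circles titled KO, triangles titled WT) and a bar at each group mean. Olfr128, Olfr127 and Olfr761 show the circles to the right of the triangles without overlap, while Olfr701 and Vmn2r7 show the groups on top of each other.

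In the comparison of libraries titled KO with those titled WT, 0 of 124 members passed the test in either direction (limma on log2(FPKM + 0.1), Benjamini-Hochberg adjusted p below 0.05 over 17422 genes). Over all tested genes 135 passed (0.775%), 87 higher (0.499%) and 48 lower (0.276%) in the libraries titled KO. At an unadjusted p under 0.05 the members counted 16 higher (12.9%) and 4 lower (3.23%), against 4.98% and 7.71% of all tested genes. Of the higher ones Olfr93, Olfr1280, Olfr700, Olfr1336 and Tas2r140 reached the limit of the rule through the libraries titled KO alone. Of the lower ones Olfr544 and Olfr221 did so through those titled WT alone. All of these had to differ and add no support to the counts, and Olfr544 and Olfr1336 are named for this reason only. The smallest adjusted p of a member was 0.0674, for Olfr127. No other testing tool was run. In simulated libraries of this design the same test recovered 40% of genes under 1 FPKM that were changed by 1 on this log2(FPKM + 0.1) scale. It recovered 82% of those changed by 2. The changed genes were drawn from all tested genes, whose median SE under 1 FPKM was 0.20, against 0.27 for the members under 1 FPKM. On this scale a faint gene also needs a larger change in FPKM, so the rates may be too high for faint receptors. A small change of a faint receptor would often not be detected at this depth.

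The members' differences were more often positive than negative. The median log2 difference, titled KO minus titled WT, was 0.10 over the members and -0.05 over all tested genes, and it was positive in 73 of 124 members (58.9%) against 37.3% of all tested genes. Among the 4660 tested genes of 0.1 to 1 FPKM, the range that holds most members, the median was -0.02 and 45.9% were positive. Without the members that reached the limit in 1 group alone, the difference was positive in 60 of 103, with a median of 0.08. In 14 members (11.3%) every library titled KO lay above every library titled WT, against 6.02% of all tested genes. In 4 members (3.23%) every library titled KO lay below, against 13.7% of all tested genes. Of the 14 higher members 5 (Olfr93, Olfr1280, Olfr700, Olfr1336 and Tas2r140) reached the limit of the rule through the libraries titled KO alone, and of the 4 lower ones Olfr873 did so through those titled WT alone, so these had to differ and add no support to the counts. Of the 103 other members 9 lay above and 3 below. In both directions together this made 18 members, against 19.7% of all tested genes. Among the tested genes of 0.1 to 1 FPKM these shares were 6.63% above and 7.94% below. The members' FPKM summed to 80.0, 94.3 and 80.1 in the libraries titled KO and to 75.6, 68.9 and 77.2 in those titled WT (84.8 ± 8.21 against 73.9 ± 4.38, SD, n = 3). The groups' sums did not overlap, at a ratio of 1.15. Without the 4 genes of the chromosome 17 run the sums overlapped, at 62.7, 71.1 and 62.4 against 62.8, 58.7 and 63.5 FPKM, a ratio of 1.06. The run was picked with its values known, and leaving out genes that hold most of a difference must shrink it, so this is a description only. The sum of 6 germ cell marker genes, which protamine Prm1 and transition protein Tnp1 of spermatids dominate, also lay higher in the libraries titled KO, at 15406 to 16447 FPKM against 13223 to 15201 FPKM. Of these genes only Prm1 lay apart, at 9823 to 10526 FPKM against 8058 to 9119 FPKM. Tnp1, Acrv1, Ddx4, Dazl and Sycp3 overlapped between the groups. The part of this sum in the members' levels was not tested. In bulk testis RNA, fewer cells of a type and less RNA per cell cannot be told apart.

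**Figure D2:**
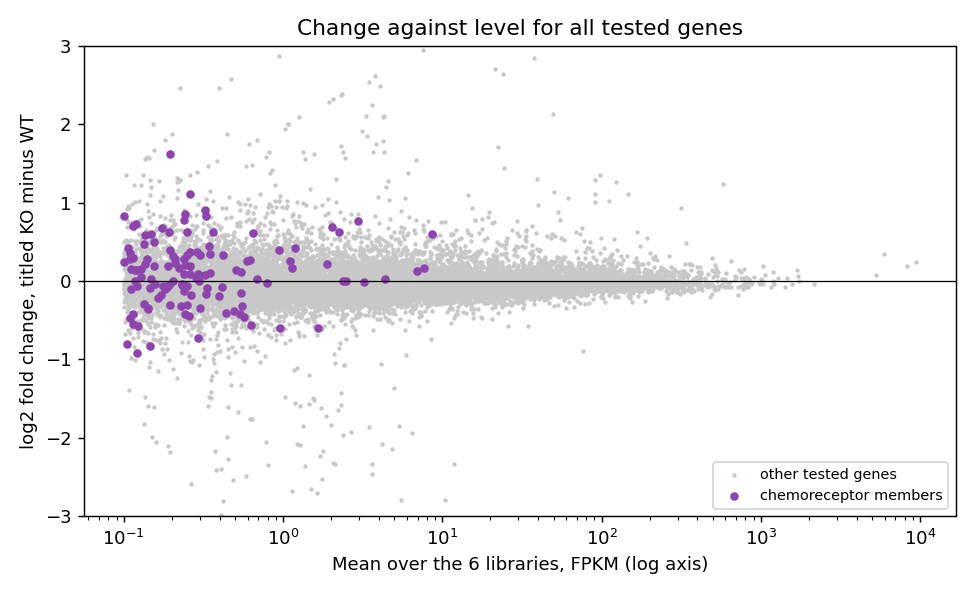
Log2 difference (titled KO minus titled WT, linear axis) against mean FPKM (log axis) for all 17422 tested genes in grey and the 124 chemoreceptor members in purple, with 26 other genes and 0 members outside the plotted range of 3. The members sit at the low end of the level axis, mostly under 1 FPKM, with 73 above the line at 0.

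The 4 odorant receptors of the chromosome 17 run held most of the members' summed difference, 7.17 of 10.9 FPKM. Olfr128 stood at 9.99, 12.7 and 8.50 FPKM in the libraries titled KO, against 7.31, 5.84 and 7.05 FPKM in those titled WT. Every library titled KO lay above the highest titled WT, and the log2 difference was 0.61 ± 0.15 (SE; limma, adjusted p = 0.173), a ratio of means of 1.54. Olfr127 stood at 2.87, 4.25 and 4.24 FPKM against 2.08, 2.22 and 2.16 FPKM. The groups did not overlap, the 3 libraries titled WT were nearly level, and the log2 difference was 0.76 ± 0.15 (SE; limma, adjusted p = 0.0674, 95% interval 0.43 to 1.10). Olfr127 passed the test when the genes were limited to a mean of at least 1 FPKM (limma, adjusted p = 0.0470), with equal library totals (limma, adjusted p = 0.0469) and without replicate 1 titled KO (limma, adjusted p = 0.00409), and with the other left-out libraries its adjusted p was 0.106 to 0.230.

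Olfr761 stood at 2.38, 3.04 and 2.78 FPKM in the libraries titled KO, against 1.66, 1.29 and 2.36 FPKM in those titled WT. The lowest library titled KO lay just above the highest titled WT, and the log2 difference was 0.63 ± 0.20 (SE; limma, adjusted p = 0.277). Without replicate 3 titled WT, its highest control, it passed the test (limma, adjusted p = 0.0354, log2 difference 0.85), and with each of the other libraries left out the adjusted p was 0.279 to 0.644. Olfr126 stood at 2.05, 3.23 and 2.17 FPKM against 1.70, 0.856 and 2.15 FPKM, and its groups overlapped (log2 difference 0.69 ± 0.34, SE; limma, adjusted p = 0.451). The low control value of 0.856 FPKM, in replicate 2 titled WT, carried much of this: without that library the log2 difference was 0.33. For all 4 genes the highest value came from replicate 2 titled KO, and without it the log2 differences were 0.45 for Olfr128, 0.67 for Olfr127, 0.55 for Olfr761 and 0.49 for Olfr126.

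Summed over the run, the level was 17.3, 23.2 and 17.7 FPKM with the title KO and 12.8, 10.2 and 13.7 FPKM with the title WT (19.4 ± 3.32 against 12.2 ± 1.82, SD, n = 3), a ratio of 1.59. The groups of this sum did not overlap. Replicate 2 titled KO was the highest library, so leaving it out could not make them overlap. FPKM divides by length, and the labels do not give the gene lengths used, so the sum too may depend on how shared reads were given out. Olfr112 lies in the same cluster, more than 100 kb from the run, and its mean of 7.67 FPKM was near that of Olfr128 only (8.57 FPKM). It did not show such a gap, with 7.59, 9.64 and 7.26 FPKM against 7.06, 7.10 and 7.37 FPKM (log2 difference 0.17 ± 0.10, SE; limma, adjusted p = 0.508). Whether Olfr112 differed from the run in its change was not tested. The neighbours Olfr113, Olfr114, Olfr115 and Olfr116 had means of 0.0246, 0, 0.0116 and 0.0730 FPKM and were not members.

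**Figure D3:**
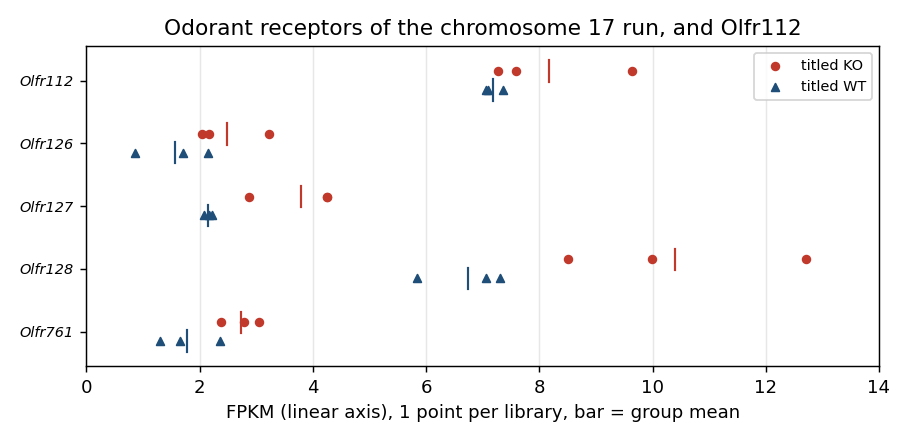
FPKM (linear axis) of Olfr126, Olfr127, Olfr128 and Olfr761 of the chromosome 17 run and of Olfr112 of the same cluster, with 1 point per library and a bar at each group mean. The circles (titled KO) of Olfr127, Olfr128 and Olfr761 lie above all their triangles (titled WT), while Olfr112 overlaps, between 7.06 and 9.64 FPKM over all 6 libraries.

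Chromosome 17 held 9 members, of which 5 had all libraries titled KO above those titled WT, 1 had them below and 8 had a positive difference. Over all tested genes these shares were 6.02%, 13.7% and 37.3%, and the shares for all genes of chromosome 17 were not computed. Among the 5, Olfr127, Olfr128 and Olfr761 are the alike genes of the run, so they are not separate cases. Olfr93, at chr17:37140423-37161494, had a log2 difference of 1.62 ± 0.35 (SE; limma, adjusted p = 0.106). Its values were 0.164, 0.537 and 0.352 FPKM in the libraries titled KO and 0.0458, 0.0795 and 0 FPKM in those titled WT, so its controls lay under the floor of 3 fragments on 1 kb. It is a member through the libraries titled KO alone, and its difference is therefore not independent of the rule. The vomeronasal receptor Vmn1r224, on the same chromosome, stood at 0.335, 0.612 and 0.408 FPKM against 0.195, 0.254 and 0.127 FPKM. Its groups did not overlap (log2 difference 0.91 ± 0.24, SE; limma, adjusted p = 0.177). The nearby Vmn1r226 went the other way, with 0.223, 0.122 and 0.238 FPKM in the libraries titled KO and 0.243, 0.254 and 0.382 FPKM in those titled WT.

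Of the other odorant receptors without overlap, Olfr1279 and its neighbour Olfr1280 on chromosome 2 both stood higher in the libraries titled KO. Olfr1279 had 0.326, 0.382 and 0.456 FPKM against 0.0456, 0.198 and 0.159 FPKM (log2 difference 1.12 ± 0.28, SE; limma, adjusted p = 0.152). Olfr1280 had 0.205, 0.231 and 0.165 FPKM against 0.0943, 0.109 and 0.0891 FPKM. It is a member through the libraries titled KO alone, so it had to be higher and adds no support to Olfr1279. Olfr1413 was even within each group, with 0.438, 0.448 and 0.506 FPKM against 0.266, 0.265 and 0.265 FPKM (limma, adjusted p = 0.140). Olfr1280, Olfr1413 and Vmn1r226, and the next 2 genes, were chosen for the text after their values were seen. Olfr199 had the reverse order, at 0.665, 0.820 and 0.727 FPKM in the libraries titled KO and 1.30, 0.836 and 1.42 FPKM in those titled WT (limma, adjusted p = 0.272). Olfr873 was also lower without overlap, at 0.0340, 0.149 and 0.0621 FPKM against 0.178, 0.155 and 0.155 FPKM. It is a member through the libraries titled WT alone, so it had to be lower.

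The high odorant receptors outside chromosome 17 showed little or no gap between the groups. Olfr701, on chromosome 7, was the steadiest member, with 4.48, 4.54 and 4.29 FPKM in the libraries titled KO and 4.18, 4.72 and 4.14 FPKM in those titled WT. Its log2 difference was 0.03, with a 95% interval of -0.15 to 0.21. Olfr733, on chromosome 14, varied more within each group than between them, with 2.47, 3.28 and 3.92 FPKM against 4.08, 2.29 and 3.44 FPKM. Olfr215 (1.196 FPKM) and Olfr303 (1.10 FPKM) overlapped as well, with log2 differences of 0.42 and 0.26. Olfr16, an odorant receptor known from sperm, was listed at 0 in all 6 libraries. Olfr78, known as a receptor of short-chain fatty acids, had a mean of 0.0665 FPKM and was no member. Olfr1393, known from the kidney, was one, at 0.563, 0.925 and 0.546 FPKM against 0.781, 0.280 and 0.641 FPKM. Its groups overlapped widely, and the log2 difference was 0.28 ± 0.33 (SE; limma, adjusted p = 0.739).

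Vomeronasal receptors of type 1 had 13 members, of which 7 had a positive difference and 2 lay above and 2 below without overlap. Over all tested genes 37.3% had a positive difference, 6.02% lay above and 13.7% below. Vmn1r181, the highest, stood at 1.33, 1.49 and 1.004 FPKM in the libraries titled KO, against 2.87, 1.28 and 2.01 FPKM in those titled WT. The groups overlapped through replicate 2 titled WT (log2 difference -0.59 ± 0.28, SE; limma, adjusted p = 0.431). Vmn1r40 stood at 0.459, 0.387 and 0.484 FPKM against 0.277, 0.241 and 0.121 FPKM, higher in every library titled KO (limma, adjusted p = 0.187). Vmn1r21 stood at 0.224, 0.123 and 0.239 FPKM against 0.244, 0.467 and 0.469 FPKM, lower in every library titled KO (limma, adjusted p = 0.312). Vmn1r4 (0.397 FPKM) and Vmn1r43 (0.261 FPKM) overlapped between groups, with log2 differences of -0.19 and 0.37. Summed, the type 1 members held 4.41 ± 0.328 FPKM in the libraries titled KO and 4.90 ± 0.724 FPKM in those titled WT (SD, n = 3), and the sums overlapped.

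Vomeronasal receptors of type 2, which carry a long extracellular domain and respond to peptides, had 16 members, 8 with a positive difference. The highest were the annotated pseudogene Vmn2r-ps11 (2.50 FPKM), Vmn2r7 (2.37 FPKM) and the annotated pseudogene Vmn2r-ps54 (1.88 FPKM). Vmn2r7 stood at 2.19, 2.51 and 2.38 FPKM against 2.13, 2.15 and 2.87 FPKM, with a log2 difference of -0.00 (95% interval -0.29 to 0.29). Vmn2r-ps54 was the only type 2 gene without overlap, at 2.04, 2.27 and 1.77 FPKM against 1.75, 1.65 and 1.77 FPKM, and there the lowest library titled KO and the highest titled WT both rounded to 1.77 FPKM. Vmn2r68 (0.302 FPKM) and Vmn2r107 (0.241 FPKM) overlapped between groups, with log2 differences of -0.34 and 0.20. The type 2 members summed to 11.1 ± 1.19 FPKM in the libraries titled KO and 10.7 ± 1.24 FPKM in those titled WT (SD, n = 3).

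Among taste receptors, Tas1r1 encodes a subunit of the umami receptor, which it forms with Tas1r3 in taste cells. It lies at chr4:152027914-152038568 on the minus strand and has 6 exons. Tas1r1 stood at 6.78, 8.15 and 6.95 FPKM in the libraries titled KO, against 6.59, 6.25 and 7.06 FPKM in those titled WT. The groups overlapped, and the log2 difference was 0.13 ± 0.09 (SE; limma, adjusted p = 0.547, 95% interval -0.07 to 0.33). Its partner Tas1r3, and the sweet receptor subunit Tas1r2, were listed at 0 in all 6 libraries. A listed 0 is not proof of absence in these tables: the haemoglobin gene Hbb-bs was also listed at 0 in all 6, beside 19.6 to 50.6 FPKM of Hba-a1. The gene next to Tas1r1, Zbtb48, lies 243 bases from it on the same strand and had a mean of 5.04 FPKM, with a log2 difference of -0.00. Tas2r140, a bitter receptor, stood at 0.210, 0.0768 and 0.192 FPKM against 0.0458, 0.0398 and 0.0399 FPKM, higher in every library titled KO (limma, adjusted p = 0.264). Its controls lay under the floor of 3 fragments on 1 kb, and it is a member through the libraries titled KO alone.

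The members were spread over the genome in small runs. By symbol 122 members matched GENCODE M21, and 73 of them stood in 25 runs of at least 2 members within 100 kb, while 49 stood alone. Chromosome 3 gave 6 members of 10 chemoreceptor symbols (60.0%) and chromosome 14 gave 12 of 41 (29.3%). The 2 chromosomes with the most symbols gave smaller shares, 27 of 389 on chromosome 7 (6.94%) and 8 of 288 on chromosome 2 (2.78%). None of the 7 symbols on the X chromosome was a member.

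**Figure D4:**
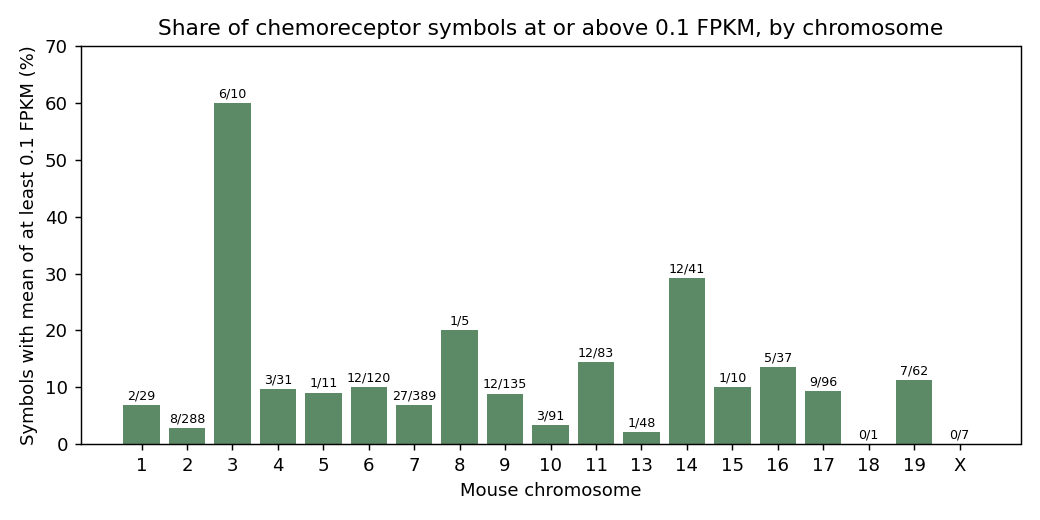
Share of the chemoreceptor symbols of each chromosome with a mean of at least 0.1 FPKM (bars, percent, linear axis from 0), with members and symbols printed over each bar. Chromosome 3 stands highest at 6 of 10 symbols and chromosome 14 next at 12 of 41, while chromosome 2 has 8 of 288.

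In some runs every chemoreceptor symbol was a member. On chromosome 3, at chr3:64383044-64844765, the type 2 receptors Vmn2r4, Vmn2r5, Vmn2r6, Vmn2r-ps11 and Vmn2r7 had means of 0.232 to 2.50 FPKM, with 2 of 5 positive differences and no pair of groups without overlap. Vmn2r6 and Vmn2r7 were 97.8% identical over 8921 aligned bases, and Vmn2r-ps11 and Vmn2r5 were 99.05% identical over 2736. On chromosome 14, at chr14:50233531-50348872, the odorant receptors Olfr731, Olfr732, Olfr733, Olfr734 and Olfr735 had means of 0.148 to 3.25 FPKM, with Olfr733 the highest and 2 of 5 positive differences. On chromosome 2, at chr2:36993827-37206019, Olfr357, Olfr360, Olfr361, Olfr362 and Olfr365 made up 5 of 6 symbols, at 0.115 to 0.325 FPKM. On chromosome 7, at chr7:106740834-106833893, Olfr697, Olfr700, Olfr701 and Olfr702 made up 4 of 6 symbols. Olfr700 stood higher in every library titled KO, at 0.172, 0.151 and 0.189 FPKM against 0.0900, 0.0782 and 0.118 FPKM. It is a member through the libraries titled KO alone, so its mean had to be higher there. All members had a positive difference in the chromosome 17 run and in 5 runs of 2 or 3 members, of 25 runs in all. In these short runs Olfr1336, Olfr1280 and Olfr898 reached the limit of the rule through the libraries titled KO alone. These genes had to be positive, so their runs add no support to the count, and Olfr898 is named for this reason only. With 58.9% of all members positive, some runs this short would be all positive without any link, and how many was not computed.

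Some levels may hold reads of another gene. Exons of 15 members overlapped exons of another annotated gene, and 107 of the 122 matched members had no such overlap. Vmn2r29 (1.13 FPKM), Olfr1344 (0.686 FPKM) and Olfr20 (0.435 FPKM) shared long identical exon sequence on the same strand with the protein-coding models Gm45844, Gm20715 and Gm49340. Vmn2r7 and Vmn2r-ps11 shared exons with the transcript Gm26939. Olfr19 (0.650 FPKM) and Vmn2r107 overlapped annotated pseudogenes on the same strand by 121 and 609 bases. Olfr279 (0.251 FPKM) and Olfr643 (0.194 FPKM) shared exon sequence with neighbouring odorant receptor models. Olfr31 (0.555 FPKM) and Olfr1358 (0.293 FPKM) overlapped a gene on the opposite strand, and the labels do not tell whether the counting used strand. A near copy, meaning an alignment of 90% identity or more that covered 50% or more of a member's longest transcript, was found for 30 of 122 members, Olfr126, Olfr128 and Olfr761 among them.

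For the promoters, RefSeq windows (GRCm38.p6) of 300 bases, from 250 before to 50 after the start, matched 100 members, with 102 windows. Many of these windows lie before a coding start rather than a transcript start: in 81 of 121 members with both annotations the RefSeq start lay more than 100 bases inside the GENCODE gene. In Olfr701 and Olfr212 the RefSeq and GENCODE starts are the same base, and the 250 bases before it follow: the first holds a TATA-like motif and the second does not. They lie at chr7:106813879-106814128 and chr6:116506266-116506515, both on the plus strand. Capitals mark TATAAA (or its reverse complement TTTATA) in Olfr701 and TGACG, part of the cyclic AMP response element, in Olfr212, which was chosen for the text after its values were seen (0.789 FPKM).
Olfr701: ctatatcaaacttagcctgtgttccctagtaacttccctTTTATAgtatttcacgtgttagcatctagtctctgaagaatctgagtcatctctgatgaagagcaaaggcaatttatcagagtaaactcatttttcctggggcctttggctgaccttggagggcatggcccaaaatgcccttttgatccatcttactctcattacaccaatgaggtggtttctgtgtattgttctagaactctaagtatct
Olfr212: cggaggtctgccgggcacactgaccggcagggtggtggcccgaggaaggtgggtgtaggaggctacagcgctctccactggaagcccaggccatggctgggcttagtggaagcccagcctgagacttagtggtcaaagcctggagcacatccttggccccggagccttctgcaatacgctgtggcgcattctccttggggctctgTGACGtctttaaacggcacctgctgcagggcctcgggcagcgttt
On both strands, TATAAA was found in 29.4% of member windows, 40.2% of the windows of the other chemoreceptor symbols and 13.6% of all windows. TGACG was found in 10.8%, 5.19% and 20.8%, and the full element TGACGTCA, which holds TGACG, in 0%, 0.247% and 1.79%. TAATTA, a homeodomain motif of odorant receptor promoters, was found in 15.7%, 16.5% and 5.29%. The O/E motif of Ebf factors of olfactory neurons (TCCC and GGGA around a pair of free bases) was found in 0%, 0.412% and 0.904%. The median GC content of the 250 bases was 37.2% in members, 34.4% in the other chemoreceptor symbols and 52.4% in all windows. TATAAA and TAATTA hold no G or C. A match is a description of these letters only.

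Genes that act with chemoreceptors were measured for the same libraries. Of 37 listed genes of signalling and receptor trafficking, 36 were in the tables, 28 were tested and 0 passed the limma test. Before adjustment, 2 were higher and 2 lower at p under 0.05, together 14.3%, against 12.7% of all tested genes. The median log2 difference of the 28 genes was -0.07, against -0.05 over all tested genes, with 10 positive and 18 negative. The highest were genes of cyclic AMP signalling and of the sperm tail: the anchoring protein Akap4 (522 FPKM), the G protein subunit Gnas (64.6 FPKM), the soluble adenylyl cyclase Adcy10 (58.3 FPKM) and the protein kinase A subunits Prkar1a (56.4 FPKM) and Prkaca (49.5 FPKM). The G protein subunits Gnb1 (33.2 FPKM) and Gnai2 (23.8 FPKM) and the phosphodiesterase Pde1c (27.0 FPKM) completed the highest 8. Of these, Gnas, Gnb1, Gnai2 and Pde1c are also on the olfactory and vomeronasal part of the list. So are Reep1 (17.1 FPKM), Pde4a (16.4 FPKM), Grk3 (9.49 FPKM) and Gnao1 (9.06 FPKM). Other genes of that part were lower, among them the channel subunit Cnga4 at 1.06 FPKM and Adcy3 at 0.821 FPKM. Ric8b stood at 0.654 FPKM, Gnal at 0.627 FPKM and the receptor transporter Rtp1 at 0.213 FPKM.

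**Figure D5:**
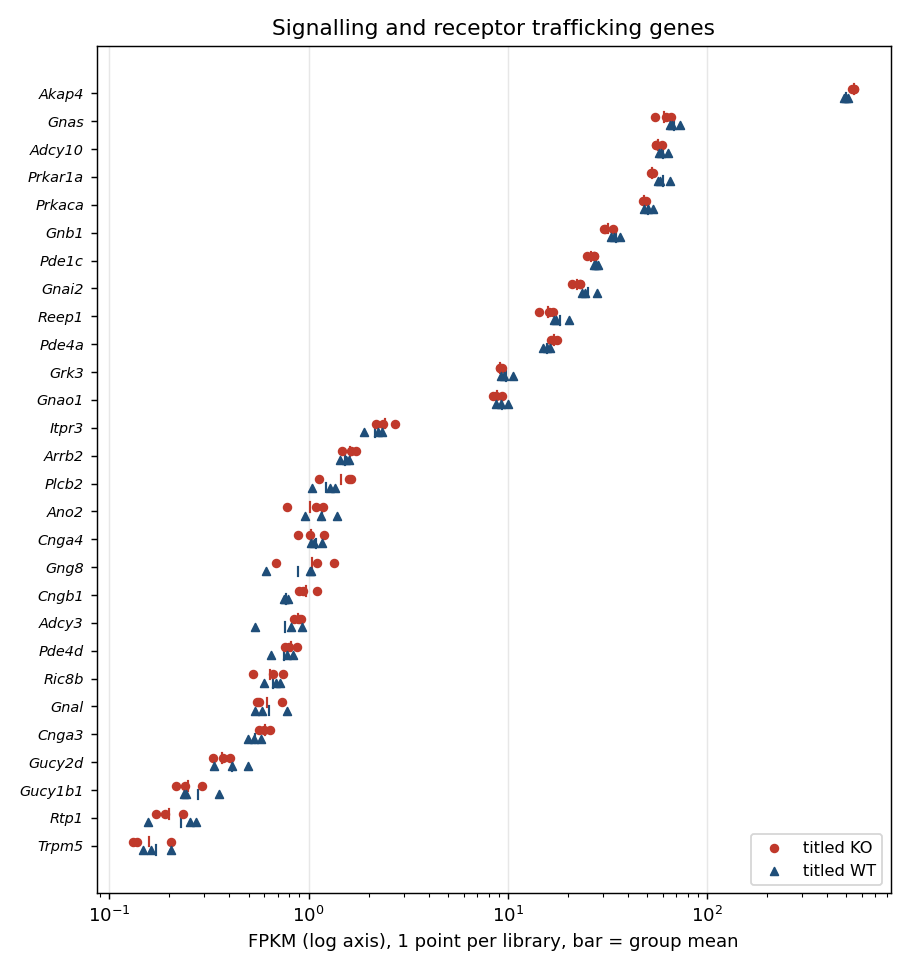
FPKM (log axis) of the 28 tested genes of chemoreceptor signalling and receptor trafficking, with 1 point per library and a bar at each group mean. Akap4 stands at the top at 522 FPKM on average, the olfactory genes Cnga4, Adcy3 and Gnal near 1 FPKM, and circles (titled KO) and triangles (titled WT) overlap except in 3 genes with all circles higher and 4 with all circles lower. Over all tested genes 6.02% had all libraries titled KO higher and 13.7% had them lower.

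Markers of the sensory cells that normally carry these receptors were low. Of 8 olfactory neuron markers 1 reached 1 FPKM, and their sum was 1.999 to 2.33 FPKM in the libraries titled KO and 1.72 to 2.38 FPKM in those titled WT. The defining genes Omp and Cnga2 had means of 0.00833 and 0.00744 FPKM, and Gng13 was listed at 0 in all 6. Vomeronasal markers summed to 2.70 to 3.73 and 2.62 to 3.10 FPKM, with 1 of 4 at or above 1 FPKM and Trpc2 listed at 0 in all 6. Taste cell markers summed to 3.77 to 4.24 and 4.96 to 5.36 FPKM, with 1 of 5 at or above 1 FPKM (the keratin Krt8, which other epithelia share), Gnat3 at a mean of 0.0204 FPKM and Rgs21 listed at 0. This sum was lower in every library titled KO, and its part in the members' levels was not tested. All 6 germ cell markers were at or above 1 FPKM, as were all 4 Leydig cell markers, so the libraries carry the labelled tissue's defining genes. Sertoli cell markers summed to 19.6 to 21.8 and 18.6 to 22.6 FPKM, Leydig cell markers to 1419 to 1667 and 1601 to 1646 FPKM, peritubular markers to 16.0 to 19.6 and 17.7 to 24.4 FPKM and macrophage markers to 3.12 to 3.98 and 3.42 to 5.15 FPKM, all with overlapping groups. Blood markers summed to 31.6 to 59.6 and 27.9 to 39.1 FPKM, and epididymis markers to 0.171 to 0.304 and 0.0673 to 0.661 FPKM. Across all tested genes the libraries correlated at 0.986 to 0.988 within the group titled KO, 0.983 to 0.988 within the group titled WT and 0.977 to 0.986 between them.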

How the data were processed

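Per the labels' protocols, Trizol served to extract total RNA of mouse testis, and the NEBNext Ultra II Directional kit to build libraries. The submitters' processing notes name HISAT2 and mm10, without versions. These sources name no quantifier, annotation or strand setting. The deposited tables, 1 per library, hold gene symbols with values taken as FPKM, normalized by the authors for length and depth. Depth was estimated from the spacing of low values (within 0.02 on the log10 scale).

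Rows of 1 symbol were summed. Genes with a mean over the 6 libraries of at least 0.1 FPKM were fitted with limma (version 3.58.1, trended prior variance, robust) under R (version 4.3.3). The scale was log2(FPKM + 0.1), which understates the change of low genes, and p-values were adjusted by Benjamini-Hochberg at 0.05. The test was tested on simulated data. It made 7 false calls among 158, and recovered 82% and 98% of genes of at least 1 FPKM changed by 1 and 2 (log2).

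Groups follow the titles. The members and lists were chosen with earlier results of these data known. The text names every member called (none was), the 15 highest, the highest 6 of each smaller family, the 6 largest differences without overlap, fixed symbols, the neighbours of the limit, members overlapping other genes and the 5 largest runs. Other genes are marked. Near copies were found with BLAST 2.17.0. Counts without members that reached the limit in 1 group alone were added after seeing the data. Positions come from GENCODE M21 and promoters from RefSeq. Figures were drawn with matplotlib 3.10.9. Alternatives changed the pseudocount, filter, scaling, moderation, replicate block, symbols on several rows and libraries left out.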

Additional observations from a re-analysis of the deposited data

How the results depend on the processing

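The count of members passing the test was 1 higher (Olfr127) with genes limited to a mean of at least 1 FPKM and 1 higher (Olfr127) with equal library totals, and 0 to 2 higher when 1 library was left out: 2 (Olfr127, and Olfr93, which reached the member limit through libraries titled KO alone) without replicate 1 titled KO and 1 (Olfr761) without replicate 3 titled WT. It was 0 lower in every alternative run. The members' summed difference of 10.9 FPKM ranged from 6.17 (without replicate 2 titled KO) to 13.3 with 1 library left out. The count of all genes passing was 84 with symbols on a single row only, and 72 to 183 with 1 library left out (72 without replicate 3 and 83 without replicate 2 titled KO, 73 without replicate 1 titled WT). The share of higher calls was 64.4%, against 79.8% with single-row symbols, 72.5% with median-of-ratios scaling, 74.1% with upper-quartile scaling and 78.1% without replicate 3 titled WT. Scaling moved the median of all genes by less than 0.1 (log2). The target's log2 difference was -14.89 (limma, adjusted p = 0.0808) at a pseudocount of 0.01 and -13.33 to -12.19 with 1 library left out, when its call was lost except without replicate 1 titled KO. The number of members was 76 at 0.2 FPKM, 29 at 0.5 FPKM and 15 at 1 FPKM. The cause of these shifts was not tested.

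A replicate block gave 44 genes passing, 0 of them members, and for the target a log2 difference of -12.57 (limma, adjusted p = 0.153). The replicate numbers were not taken as a pairing: deviations of same-numbered libraries correlated at 0.0206, -0.0231 and 0.0761.

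Differences that had passed no test changed sign. Olfr361 was 0.0031 at a pseudocount of 1 and Olfr643 was 0.27 at a pseudocount of 0.01. Olfr733, Vmn2r-ps11 and Vmn2r7 were 0.036, 0.037 and 0.039 with median-of-ratios scaling and 0.024, 0.025 and 0.027 with upper-quartile scaling. With 1 library left out, the values ranged from -0.038 to 0.14 for Olfr1344, -0.16 to 0.25 for Olfr1358, -0.088 to 0.52 for Olfr1393, -0.66 to 0.13 for Olfr279, -0.53 to 0.46 for Olfr361, -0.31 to 0.48 for Olfr365, -1.03 to 0.36 for Olfr643, -0.0023 to 0.090 for Olfr701, -0.59 to 0.21 for Olfr731, -0.23 to 0.17 for Olfr733, -0.30 to 0.051 for Olfr734, -0.22 to 0.32 for Olfr735, -0.16 to 0.19 for Vmn2r-ps11, -0.033 to 0.21 for Vmn2r5, -0.13 to 0.032 for Vmn2r6 and -0.073 to 0.13 for Vmn2r7. Depth limits members under 0.2 FPKM, which lie near the floor of 3 fragments on 1 kb.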
